A study of Mus musculus with 9 samples.

Results

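Untreated E14 cells, a wild-type line of mouse embryonic stem cells, gave 3 of the 9 RNA libraries of the study, and those 3 libraries are described here. They were taken by their label as the untreated group. The other 6 libraries come from cells transfected with siRNA and were not used, so every value is a level within untreated cells and no change is reported. The labels give 1 line, its genotype as wild type and its treatment as none. They grew on fibronectin in 2i/LIF medium, made with serum replacement, 1 µM PD0325901, a MEK inhibitor, 3 µM CHIR99021, a GSK3 inhibitor, and 1000 U/ml of the cytokine LIF. Poly(A) RNA libraries were made from 200 ng of total RNA.

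Mouse embryonic stem cells in 2i/LIF are a culture model of the naive pluripotency of the early epiblast. Pou5f1, Sox2 and Nanog sit at the centre of a network of transcription factors that holds this state, LIF feeds it through Stat3, CHIR99021 acts through β-catenin and PD0325901 blocks the FGF-ERK signal that starts exit from it. Cohesin is a ring of Smc1a, Smc3 and a kleisin (Rad21, or Rec8 in meiosis) that holds sister chromatids together and forms chromatin loops. Each ring binds 1 STAG protein, Stag1 or Stag2 in dividing somatic cells and Stag3 in the meiotic germ line, and Stag3 is the gene that the siRNA of the study targets.

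Levels are given as CPM (counts per 1000000), the share of a gene in the total count of its library, and in the order Set 1 experiment 1, Set 1 experiment 3 and Set 3 experiment 5, names taken from the columns of the table. Errors are SD over these 3 libraries (n = 3), which the series calls biological replicates. Longer transcripts collect more counts, so levels of different genes are compared only as TPM (transcripts per 1000000), here counts divided by the length of the longest annotated transcript and rescaled to 1000000 per library. Where genes are placed in order by CPM, the order is one of counts. A gene was classed as expressed at 1 CPM or more in all 3 libraries, as near-silent under 0.5 CPM in all 3, and otherwise as low. The libraries are bulk samples, in which fewer cells expressing a gene and less RNA per cell cannot be told apart.

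The genes that mark these cells were high in every library. Pou5f1 (ENSMUSG00000024406), which encodes the factor Oct4, was at 877, 860.3 and 954 CPM. Nanog (ENSMUSG00000012396), the factor that sustains self-renewal, was at 675, 693 and 645 CPM, and Esrrb (ENSMUSG00000021255), an orphan nuclear receptor of the naive network, was at 699.5, 612 and 664 CPM. The highest library was 1.11 times the lowest for Pou5f1, 1.07 times for Nanog and 1.14 times for Esrrb. Stag3 (ENSMUSG00000036928) was at 24.8, 24.3 and 29.6 CPM, highest in the Set 3 library. On the length-scaled scale the means were 1595 ± 78.1 TPM for Pou5f1, 736 ± 36.6 TPM for Nanog, 371 ± 33.1 TPM for Esrrb and 13.6 ± 1.35 TPM for Stag3. Stag3, a meiotic subunit by its known role, lay above the median of all genes of the table, 8.77 TPM.

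The sequences just before the transcription starts of these genes differ in base composition, and they are shown here because the silent and expressed classes described below differ in the same property. Each is the 250 bases before the RefSeq start (build GRCm38.p6), 5′ to 3′, with an E-box (CACGTG, a palindrome bound by Mga-Max and other basic helix-loop-helix factors) or an E2F-type motif (GCGGGA, or TCCCGC on the other strand) in capitals. The motifs overlap in none of the windows shown. Where RefSeq lists 2 starts (Pou5f1, Nanog and Hormad1), the first was taken.
Pou5f1, chr17:35505782-35506031, plus strand: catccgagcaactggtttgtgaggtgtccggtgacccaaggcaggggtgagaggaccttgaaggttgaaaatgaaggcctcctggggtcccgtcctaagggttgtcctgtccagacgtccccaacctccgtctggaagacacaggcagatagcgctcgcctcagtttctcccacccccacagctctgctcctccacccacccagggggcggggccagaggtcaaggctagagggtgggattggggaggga
Nanog, chr6:122707239-122707488, plus strand: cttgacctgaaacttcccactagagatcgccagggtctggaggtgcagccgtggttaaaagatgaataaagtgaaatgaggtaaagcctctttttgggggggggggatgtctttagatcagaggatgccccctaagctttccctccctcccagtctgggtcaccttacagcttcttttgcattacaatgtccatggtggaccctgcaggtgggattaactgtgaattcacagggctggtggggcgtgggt
Stag3, chr5:138280259-138280508, plus strand: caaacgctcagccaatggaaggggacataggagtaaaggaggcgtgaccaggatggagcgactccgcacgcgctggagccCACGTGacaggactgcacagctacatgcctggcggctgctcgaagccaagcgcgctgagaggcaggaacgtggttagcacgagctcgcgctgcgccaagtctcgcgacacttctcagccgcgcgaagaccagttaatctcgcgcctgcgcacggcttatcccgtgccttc
Stag1, chr9:100643198-100643447, plus strand: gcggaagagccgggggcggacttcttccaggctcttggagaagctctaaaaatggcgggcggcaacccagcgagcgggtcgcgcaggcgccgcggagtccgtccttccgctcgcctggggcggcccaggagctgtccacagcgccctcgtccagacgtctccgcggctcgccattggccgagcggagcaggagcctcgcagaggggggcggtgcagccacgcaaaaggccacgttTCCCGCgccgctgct
Hormad1, chr3:95559427-95559676, plus strand: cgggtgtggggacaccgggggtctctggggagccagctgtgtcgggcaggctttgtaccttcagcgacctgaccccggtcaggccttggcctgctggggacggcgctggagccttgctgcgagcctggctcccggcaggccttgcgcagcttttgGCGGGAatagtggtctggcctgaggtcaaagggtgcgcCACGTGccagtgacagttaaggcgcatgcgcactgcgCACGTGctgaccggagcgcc
Sycp3, chr10:88459337-88459586, plus strand: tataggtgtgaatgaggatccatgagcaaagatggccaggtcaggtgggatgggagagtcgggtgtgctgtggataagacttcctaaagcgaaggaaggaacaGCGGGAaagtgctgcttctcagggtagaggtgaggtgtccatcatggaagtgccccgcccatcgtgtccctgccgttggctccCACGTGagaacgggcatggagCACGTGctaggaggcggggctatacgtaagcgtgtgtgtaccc
Neither motif occurs in the windows of Pou5f1 and Nanog, which hold 3.2 and 1.2 CpG per 100 bases. Those of Stag3 and Stag1 hold 10.4 and 12.4 CpG per 100 bases, with 1 E-box before Stag3 and 1 E2F-type motif before Stag1. Hormad1 and Sycp3, germline genes treated below, have 2 E-boxes and 1 E2F-type motif each. Such a match describes the letters of the window and is no evidence that a factor binds there.

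Total counts were 34601250, 33857076 and 44527534. The detection floor, set at 3 counts, was 0.0867, 0.0886 and 0.0674 CPM in these libraries and covers counting error only. Mitochondrially encoded genes took 4.41%, 5.33% and 3.48% of the counts, and ribosomal protein genes 6.37%, 6.73% and 8.03%. The Set 3 library stood apart from the Set 1 pair: among the 8706 genes with a mean of at least 10 CPM it was the highest or the lowest of the 3 for 81.3%, where 3 alike libraries would give 66.7% each. What distinguishes the sets is not given in the sources used here, and with 1 Set 3 library the set and the library cannot be told apart.

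Of the 16636 genes of the table, 11901 (71.5%) were expressed, 1731 were low and 3004 (18.1%) were near-silent. Among the near-silent ones, 570 had at most 3 counts in all 3 libraries and 20 had none. The median gene was at 12.1 CPM, while 2334 genes reached a mean of 100 CPM and 86 a mean of 1000 CPM. The promoter windows differed between these classes: the median was 6.4 CpG per 100 bases for 9510 expressed genes with a RefSeq promoter, 3.2 for 1280 low genes and 2.0 for 2144 near-silent genes. The windows of Pou5f1 and Nanog have the CpG density of the low and near-silent classes, although both genes are expressed. An E-box occurred in 7.86% and an E2F-type motif in 27.2% of the windows of all 12934 table genes with a promoter.

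**Figure D1:**
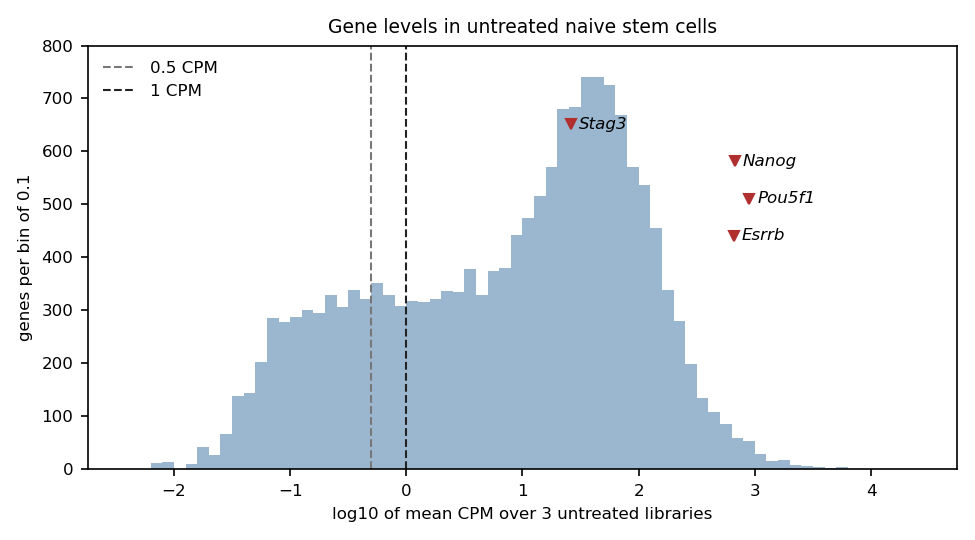
Distribution of the mean level of all 16636 genes over the 3 untreated libraries, in CPM on a log axis, with the thresholds of 0.5 and 1 CPM and selected genes marked. Pou5f1, Nanog and Esrrb lie far to the right, Stag3 lies near the centre of the expressed genes, and the height at which a gene is marked has no meaning.

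Genes of protein synthesis and folding led the nuclear-encoded counts. Eef1a1, the elongation factor that brings aminoacyl-tRNA to the ribosome, was the highest at 12151, 12489 and 14072 CPM. The cytosolic chaperones followed, with means of 6911 ± 503 CPM for Hsp90aa1, 5958 ± 229 CPM for Hsp90ab1 and 3872 ± 316 CPM for Hspa8. The others of the top 10 were Lars2 (5202 ± 1172), the mitochondrial leucyl-tRNA synthetase, Gapdh (4461 ± 317) of glycolysis, the nucleolar proteins Npm1 (3811 ± 221) and Ncl (3048 ± 136), the elongation factor Eef2 (3321 ± 336) and the poly(A)-binding protein Pabpc1 (2922 ± 70.5), all in CPM. Lars2 was the most variable of the 10, with 5832, 5924 and 3849 CPM, lowest in the Set 3 library.

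On the TPM scale, which divides counts by transcript length, the order changed after the first gene. Eef1a1 (17409 ± 1081 TPM) was followed by Hsp90ab1 (5727 ± 222), Npm1 (5649 ± 191), Ptma (5593 ± 287), Rpl23a (5511 ± 739.98), Rplp1 (5239.8 ± 859), Hsp90aa1 (5101 ± 350.3), Ftl1-ps1 (5037 ± 726), Rpl13a (4387 ± 519) and Rpl19 (4339 ± 424), of which 4 encode ribosomal proteins. Several of these genes have processed copies elsewhere in the genome, so their counts are uncertain. Of the 31-base sequences of their transcripts, 74.8% in Eef1a1, 81.7% in Rpl23a and 94.3% in Ftl1-ps1, a ferritin pseudogene, also occur in transcripts of other genes. The share was 79.9% for Rpl19, 75.1% for Rplp1, 62.9% for Hsp90aa1, 58.2% for Rpl13a, 45.5% for Npm1, 40.4% for Ptma and 16.6% for Hsp90ab1. Among genes leading in CPM alone it was 61.2% for Hspa8, 31.8% for Gapdh and 23.2% for Eef2, and lower for Pabpc1, Ncl and Lars2.

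The mitochondrially encoded genes, which encode subunits of the respiratory chain, held some of the highest counts. The leading means were 17884 ± 2258 CPM for mt-Co1, 5988 ± 943 CPM for mt-Cytb, 5008 ± 1089 CPM for mt-Nd1 and 3225 ± 643 CPM for mt-Nd4. The next, mt-Co3, was at 1809, 4424 and 1463 CPM, with the Set 1 experiment 3 library above both others. Of its 31-base sequences 99.9% also occur in other transcripts of the annotation. That share was 63.9% for mt-Co1 and 62.8% for mt-Nd4, whose counts are uncertain too, and 6.55% for mt-Cytb and 0% for mt-Nd1. The 20 highest genes together held 9.94% of the counts on average.

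Every gene on the core and naive pluripotency lists was expressed, 16 of 16 and 20 of 20, beside 71.5% of all genes. The median member was at 221 CPM in both lists, beside 12.1 CPM over all genes. On the length-scaled scale the medians differed, at 99.7 TPM for the core and 185 TPM for the naive list, beside 8.77 TPM over all genes. These lists, like the others below, were chosen with earlier results of these data known, so the counts describe the cells and test nothing.

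Among the core factors Pou5f1 led, followed in CPM by Cdh1 (681 ± 26.9), which encodes E-cadherin, Rif1 (559 ± 109.9), a regulator of replication timing, and L1td1 (447 ± 25.4), an RNA-binding protein. Sox2, the partner of Oct4, was at 297, 336 and 293 CPM, and its highest library was 1.15 times its lowest. Sall4, a zinc finger factor, was at 360.2 ± 23.4 CPM and Tdgf1, the Nodal co-receptor Cripto, at 332 ± 11.9 CPM. The RNA-binding proteins of early development were Trim71 (415 ± 26.3) and Lin28a (132 ± 15.7) CPM, and the zinc finger factor Zfp281 (108 ± 16) CPM. The lowest members were Dppa4 (33.9 ± 1.56), Utf1 (22.1 ± 3.09), Epcam (21 ± 3.43) and Foxd3 (20 ± 1.83) CPM. Rif1 (623, 622 and 432 CPM) was lowest in the Set 3 library.

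The naive list was led by Tfcp2l1, a factor downstream of LIF and Wnt signals, at 1624, 1463 and 1321 CPM. Dppa5a, a small RNA-binding protein of pluripotent cells, followed at 931, 1018 and 1290.2 CPM, and was the highest of the list on the length-scaled scale at 4215 ± 647 TPM, though 57.2% of its 31-base sequences occur in other genes too. Tdh, the threonine dehydrogenase on which mouse stem cells rely, was at 954, 907 and 974 CPM. Tfcp2l1 ran opposite to Dppa5a across the libraries, the first lowest and the second highest in the Set 3 library. Zfp42, the marker Rex1, was at 548 ± 12.1 CPM, Spp1 at 449 ± 14.6 CPM and Fbxo15 at 317 ± 3.63 CPM. Their highest libraries were 1.04, 1.07 and 1.02 times their lowest.

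The lower end of the naive list was expressed too. Tbx3, a T-box factor, was at 198 ± 15.3 CPM, Nr5a2 at 137 ± 13.3 CPM, Tcl1, a cofactor of AKT, at 104 ± 9.56 CPM, Nr0b1 at 66.7 ± 6.6 CPM and Prdm14, which represses FGF signalling and DNA methylation genes, at 64.4 ± 3.82 CPM. Dppa3, the maternal factor Stella, was at 39.3, 43.5 and 52.2 CPM, Manba at 32.9 ± 1.08 CPM and Gbx2 at 22.4, 22.2 and 21.1 CPM. Gbx2 had the fewest counts of the 20, and its values in the 3 libraries were nearly equal. Of the 31-base sequences of Gbx2 43.5%, and of those of Dppa3 31.8%, also occur in other transcripts, so both counts are uncertain.

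**Figure D2:**
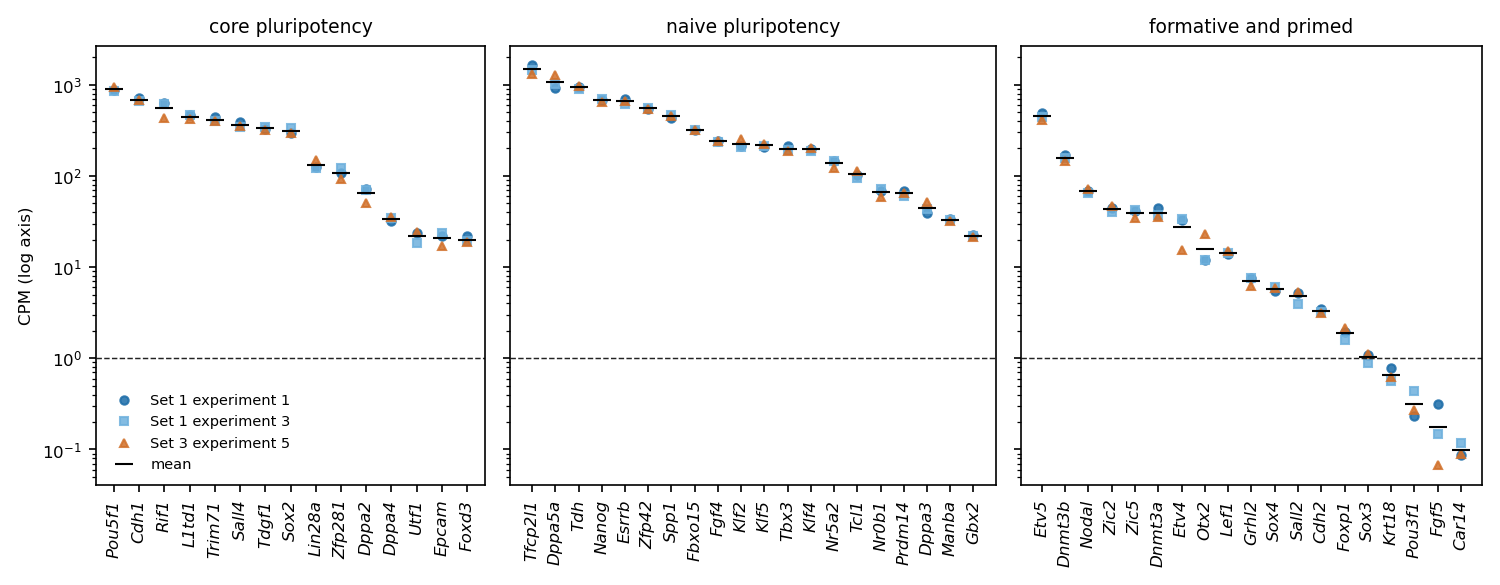
Level of the core, naive and formative pluripotency genes in each of the 3 untreated libraries, in CPM on a log axis, 1 point per library and 1 core gene not drawn. All core and naive genes shown lie well above 1 CPM in every library, while the formative genes run from 449 CPM (Etv5) down to 0.0982 CPM (Car14).

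The formative and primed genes, which rise when naive cells advance toward the post-implantation epiblast, were spread over all classes. Of 19, 14 were expressed (73.7%, near the 71.5% of all genes), 2 low and 3 near-silent, and the median was 7.07 CPM. Etv5, an ETS factor and ERK target, was the highest at 489.9, 448 and 411 CPM, and the de novo DNA methyltransferase Dnmt3b followed at 171, 159 and 145 CPM. The count of Etv5 is uncertain, as 32.3% of its 31-base sequences also occur in other transcripts. Nodal, a TGF-β family ligand, was at 68.1 ± 3.41 CPM and the zinc finger factors Zic2 and Zic5 at 43.8 ± 3.39 and 39.3 ± 4.11 CPM. Otx2, which drives exit from the naive state, was at 11.9, 12 and 23.3 CPM, so that the Set 3 library held 1.96 times the level of the lowest. Etv4 went the other way, with 33, 33.4 and 15.5 CPM.

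The members with the fewest counts were Pou3f1, Fgf5 and Car14. Pou3f1 (Oct6) was at 0.231, 0.443 and 0.269 CPM, Fgf5 at 0.318, 0.148 and 0.0674 CPM and Car14 at 0.0867, 0.118 and 0.0898 CPM, all near-silent. Sox3 (1.03 ± 0.123 CPM) and Krt18 (0.657 ± 0.112 CPM) were low. Between these ends were the expressed Dnmt3a (39.1 ± 4.57 CPM), Lef1 (14.3 ± 0.531 CPM), Grhl2 (7.07 ± 0.778), Sox4 (5.8 ± 0.277), Sall2 (4.85 ± 0.747), Cdh2 (3.28 ± 0.14) and Foxp1 (1.89 ± 0.272) CPM. Sox4 has an uncertain count, since 54.7% of its 31-base sequences also occur in other transcripts.

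All 8 genes of the LIF pathway were expressed, beside 71.5% of all genes. The receptor subunits Il6st (gp130) and Lifr were at 224 ± 15.4 and 109.8 ± 14.3 CPM, the kinase Jak1 at 39.7 ± 3.31 CPM and Stat3 at 149, 133 and 135 CPM. Its targets followed with 138 ± 7.15 CPM for Pim1, 67.4 ± 6.03 CPM for Pim3 and 62.1 ± 2.69 CPM for Socs3, the feedback inhibitor of the receptor. Junb, at 22.2, 21.8 and 13.9 CPM, was lowest in the Set 3 library.

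With MEK inhibited, 13 of 14 genes of the FGF-ERK pathway were expressed (71.5% over all genes) at a median of 27.9 CPM (12.1 over all genes). The length-scaled median was 19.6 TPM (8.77 over all genes). The ligand Fgf4 was at 241, 233 and 243 CPM and its receptors at 96.1 ± 10.6 CPM (Fgfr1) and 9.07 ± 3.47 CPM (Fgfr2). Among the feedback genes were the phosphatases Dusp6 and Dusp4 at 7.63 ± 0.942 and 0.622 ± 0.172 CPM, and the Sprouty genes Spry2, Spry1 and Spry4 at 36.6 ± 2.26, 3.54 ± 0.546 and 1.21 ± 0.0504 CPM. Spred1 was at 30, 36.6 and 18.8 CPM, and Myc at 7.48 ± 0.979 CPM.

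The immediate early genes of this list separated the libraries more than its other members. Egr1 was at 176, 173 and 46 CPM, and Fos at 49.1, 49.4 and 11.8 CPM. In both the Set 1 libraries were alike and the Set 3 library was far lower, and Etv4, Spred1 and Junb were lowest there too. The highest library was 3.83 times the lowest for Egr1 and 4.19 times for Fos.

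Wnt components and targets were expressed for 13 of 15 genes, beside 71.5% of all genes, at a median of 72.9 CPM beside 12.1 CPM. By length the gap was smaller, with a median of 23.7 TPM beside 8.77 TPM. Ctnnb1, which encodes β-catenin, was at 872, 885 and 856 CPM, its highest library 1.03 times its lowest. The receptors Lrp6 and Fzd7 were at 72.9 ± 5.88 and 40.5 ± 1.15 CPM. Among the targets, Ccnd1 was at 238 ± 16 CPM, Axin2 at 105 ± 9.13 CPM, Sp5 at 82 ± 7.02 CPM and Notum, a secreted inhibitor of Wnt ligands, at 67.5, 59.5 and 103 CPM, highest in the Set 3 library. Notum and Ccnd1 share 34.1% and 28.1% of their 31-base sequences with other transcripts, so both counts are uncertain. Cdx1 and T, targets that also belong to the primitive streak, were at 17.1 ± 1.17 and 4.93 ± 1.33 CPM. Nkd1 was low at 0.918 ± 0.206 CPM and Lgr5, a target in adult stem cells, near-silent at 0.145, 0 and 0.112 CPM.

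Many lineage genes were near or under the threshold of 1 CPM. Of the primitive streak, mesoderm and endoderm genes, 7 of 15 were expressed (71.5% of all genes were), 2 low and 6 near-silent (18.1% of all genes were), at a median of 1.16 CPM. The Nodal antagonists Lefty2 and Lefty1 were the highest, at 66, 79.7 and 115 CPM and 37.2, 36.3 and 65.4 CPM. Brachyury (T) was at 4.19, 4.14 and 6.47 CPM, highest in the Set 3 library, as were both Lefty genes. Besides Cdx1, given above, the other expressed factors were Gsc (3.07 ± 0.602), Eomes (2.55 ± 0.496) and Cdx2 (1.44 ± 0.573) CPM. Wnt3 (1.16 ± 0.554 CPM) and Mixl1 (0.476 ± 0.229 CPM) were low. Foxa2, Evx1, Tbx6, Fgf8, Sox17 and Cer1 were near-silent, with means from 0.298 CPM for Foxa2 down to 0.0710 CPM for Cer1. Another 4 genes on this list were not analysed here.

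In the neural list 6 of 12 genes were expressed, 1 low and 5 near-silent, beside 71.5% expressed and 18.1% near-silent of all genes. Tubb3, the neuronal β-tubulin, was at 119, 101 and 122 CPM, and Nes, an intermediate filament of neural progenitors, at 25.5 ± 2.53 CPM. The factors were far lower: Pax6 (2.45 ± 0.225) and Neurod1 (1.5 ± 0.338) CPM were expressed, with Map2, a microtubule protein, at 3.08 ± 0.0961 CPM. Sox1, the first mark of neuroectoderm, was low at 1.36, 0.591 and 0.876 CPM. Zic1, Neurog1 and Gfap were near-silent, at 0.187 ± 0.134, 0.132 ± 0.0133 and 0.113 ± 0.0244 CPM.

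The primitive endoderm list divided by role. None of its 6 transcription factors was expressed: Hnf4a was low at 1.01 ± 0.121 CPM and Gata4, Gata6, Sox7 and Foxq1 were among the near-silent ones, Gata4 at 0.116, 0.354 and 0.427 CPM and Gata6 at 0.376, 0.266 and 0.247 CPM. Of the 9 receptor, adaptor and matrix genes 7 were expressed, beside 71.5% of all genes. Lamc1, a laminin chain, was at 881, 731 and 725 CPM, and Sparc, a matrix glycoprotein, at 287 ± 10.3 CPM. The other laminin chains, Lama1 and Lamb1, were at 75.9 ± 15.2 and 15.4 ± 2.27 CPM, followed by Col4a1 (3.06 ± 0.197), Pdgfra (1.86 ± 0.0351) and Col4a2 (1.44 ± 0.439) CPM. Dab2 (0.786 ± 0.189 CPM) was low and Afp (0.0659 ± 0.0377 CPM) near-silent. The summed level of the list, 1096 to 1277 CPM, was mostly Lamc1 and Sparc, and that of its transcription factors was 1.89 to 2.11 CPM.

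Trophoblast genes were expressed in 6 of 11 cases (54.5%, beside 71.5% of all genes). Tfap2c, also a germ cell factor, was at 65.7, 64.1 and 69 CPM and Tead4, a partner of YAP, at 35.4 ± 2.34 CPM. Fgfr2 (9.07 ± 3.47), Tfap2a (6.16 ± 0.37), Krt8 (2.43 ± 0.484) and Krt7 (1.23 ± 0.0655) CPM were the other expressed members. The Krt8 count is uncertain, as 36.0% of its 31-base sequences also occur in other transcripts. The lineage factors Elf5, Ascl2, Gata3 and Gcm1 were low, between 0.503 ± 0.103 CPM for Gcm1 and 0.864 ± 0.201 CPM for Elf5. Psg17, a placental glycoprotein, was near-silent at 0.0593 ± 0.0305 CPM.

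Genes of the two-cell-like state, which appears in rare cells of such cultures, were mostly close to the floor. Of 7 measured, 2 were expressed (28.6%, beside 71.5% of all genes), 1 low and 4 near-silent (18.1% of all genes were). The expressed ones were Pramel6 and Pramel7, at 2.41 ± 0.829 and 1.22 ± 0.108 CPM. Zscan4f was at 0.0289, 0.65 and 0.112 CPM, and Zscan4c, Zscan4d and Zscan4e had means of 0.133 ± 0.161, 0.083 ± 0.0357 and 0.136 ± 0.145 CPM. The copies are near-identical, with 97.6% of the 31-base sequences of Zscan4f found in other transcripts, so the split among them is uncertain. Usp17lc, with 60.7% of its 31-base sequences in other transcripts too, was at 0.246 ± 0.146 CPM, and 8 listed genes were not analysed here.

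**Figure D3:**
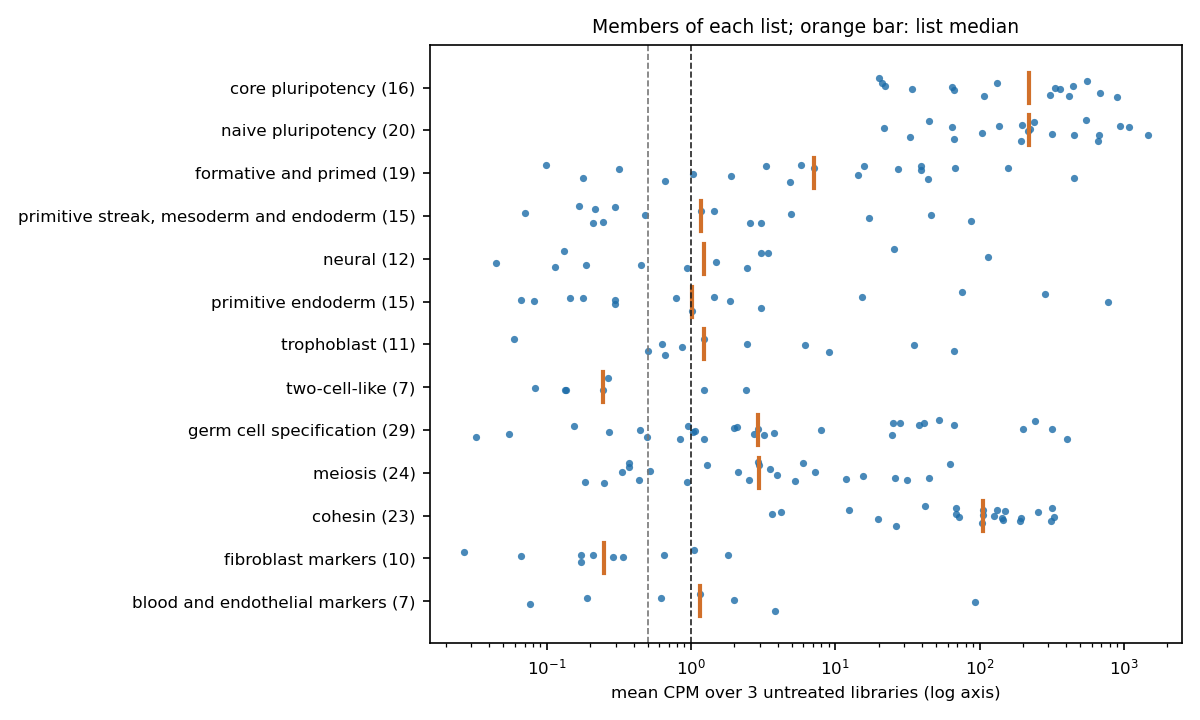
Mean level over the 3 untreated libraries of each gene in the lists drawn, in CPM on a log axis. Dashed lines mark 0.5 and 1 CPM, and orange bars the median of each list. Core, naive and cohesin lists lie to the high side, and lineage and other cell types to the low side. The germ cell and meiosis lists span both. The LIF, FGF-ERK, Wnt, gamete maturation and sex-linked lists are not drawn.

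Germ cell and meiosis genes covered a wide range of levels. Of the germ cell list 19 of 29 genes and of the meiosis list 15 of 24 were expressed, beside 71.5% of all genes, at medians of 2.92 and 2.94 CPM. Several germ cell genes are also known from naive stem cells. Alpl, the alkaline phosphatase that stains both, was at 417, 372 and 423 CPM, Kit, the receptor of stem cell factor, at 316 ± 22.1 CPM, and the interferon-induced membrane proteins Ifitm1 and Ifitm3 at 243 ± 49.8 and 199.97 ± 1.06 CPM. Prdm1 (Blimp1), which specifies primordial germ cells, was at 22.2, 22.8 and 29.6 CPM, and Nanos3, which keeps them alive, at 2.92 ± 0.422 CPM.

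Genes of later germ cells were also measured well above the floor. Dazl, a translational regulator of germ cells, was at 40.1, 52.4 and 21.1 CPM, lowest in the Set 3 library. Tdrd12, of the piRNA pathway, was at 52.1 ± 2.92 CPM, Tex19.1 at 48.8, 45.4 and 29.1 CPM and Sohlh2 at 32.9, 30.7 and 20.5 CPM, the last a factor of early gametogenesis. The remaining expressed members were Tex14 (25 ± 2.81), Dnd1 (8.02 ± 2.31), Tex11 (3.79 ± 1.02), Mov10l1 (3.2 ± 0.959), Ddx4 (2.75 ± 0.383), Piwil2 (2.07 ± 0.29), Mael (1.98 ± 0.309) and Tdrd9 (1.03 ± 0.0406) CPM. Per length, Ddx4, the helicase Vasa, was at 2.21 ± 0.307 TPM and Dazl at 30.9 ± 12.9 TPM.

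The piRNA pathway was uneven. Piwil2 was expressed, Piwil1 (1.07 ± 0.30 CPM) and Piwil4 (0.493 ± 0.0673 CPM) were low, and Asz1 (0.269 ± 0.117 CPM) and Tdrd1 (0.0289, 0 and 0.0674 CPM) were near-silent. The oocyte and spermatogonial factors Nobox and Sohlh1 were near-silent too, at 0.153 ± 0.14 and 0.0544 ± 0.0596 CPM. Taf7l, Tex19.2, Slc25a31 and Tex101 were low, between 0.44 ± 0.231 CPM for Tex101 and 1.23 ± 0.297 CPM for Taf7l. Of 3 gamete maturation genes measured, the zona protein gene Zp3 was at 10.4, 10.7 and 8.94 CPM. The oocyte ligands Gdf9 and Bmp15 were at 0.191 ± 0.0635 and 0.0593 ± 0.0305 CPM. Another 6 genes on the gamete maturation list were not analysed here.

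Among the regulators of meiotic entry, Stra8, the retinoic acid target, was at 14.8, 17 and 15.1 CPM, while its partner Meiosin was at 0.491, 0.532 and 0.292 CPM, so the pair was unequal in every library. On the length-scaled scale Stra8 stood at 21 ± 1.33 TPM and Meiosin at 0.273 ± 0.0824 TPM. The RNA-binding pair Ythdc2 and Meioc was at 25.7 ± 6.21 and 6.01 ± 1.06 CPM. Prdm9, the methyltransferase that places recombination sites, was at 2.13 ± 0.288 CPM.

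The chromosome axis and synaptonemal complex genes were split. Hormad1, an axis protein, was at 31.8, 45.1 and 18 CPM and Sycp3, of the lateral element, at 4.8, 7.12 and 3.86 CPM, in both cases highest in Set 1 experiment 3 and lowest in Set 3. Other transcripts hold 42.5% of the 31-base sequences of Hormad1 and 52.9% of those of Sycp3, so both counts are uncertain. Syce2 and Syce1, of the central element, were at 44.6 ± 5.29 and 11.8 ± 2.14 CPM and Hormad2 at 7.18 ± 0.943 CPM. Sycp1, the transverse filament that joins both sides, was low at 0.347, 0.65 and 0.112 CPM, and Sycp2, Syce3 and Tex12 were near-silent at 0.37 ± 0.0757, 0.247 ± 0.143 and 0.184 ± 0.0773 CPM. Per length, members of this structure ran from 64 ± 6.13 TPM for Syce2 to 0.157 ± 0.0326 TPM for Sycp2.

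Recombination genes were split as well. Hsf2bp, a partner of BRCA2, had the most counts of the list at 59.9, 63 and 63.4 CPM, its partner Brme1 (2.96 ± 0.178) and the strand exchange protein Dmc1 (3.54 ± 0.345) were expressed, and so was Msh4 (3.97 ± 0.133) CPM. Msh5, which acts as a dimer with Msh4, was low at 0.519 ± 0.115 CPM, as was Spata22 at 0.935 ± 0.172 CPM. Meiob, the partner of Spata22, was near-silent at 0.491, 0.443 and 0.0674 CPM. Other transcripts hold 80.0% of the 31-base sequences of Spata22, so its count is uncertain. The telomere attachment genes were Terb2 (2.91 ± 0.208), Majin (2.52 ± 0.382) and Terb1 (1.28 ± 0.561) CPM, the last of them low. The promoter windows of the meiosis genes held an E2F-type motif in 11 of 18 cases and an E-box in 4. The first share was 61.1%, beside 27.2% of all table genes with a promoter. It was similar in the Wnt list (60.0%, 6 of 10) and the neural list (55.6%, 5 of 9), and lower in each other list. In the germ cell list 9 of 25 windows (36.0%) held an E-box, beside 7.86%.

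All 23 cohesin genes and regulators that were measured were expressed, beside 71.5% of all genes, at a median of 106 CPM beside 12.1 CPM, and Rad21l was not analysed here. Per length the median was 57.4 TPM beside 8.77 TPM. The subunits of the mitotic ring were high: Rad21 was at 324, 337 and 294 CPM, Smc3 at 333, 335 and 278 CPM and Smc1a at 196, 183 and 193 CPM. Wapl, which releases the ring from chromatin, was the highest of the list in counts, at 330.4 ± 41.3 CPM. The loader subunits Nipbl and Mau2 were at 142 ± 24.6 and 68.4 ± 7.36 CPM. Cdca5 (sororin), which protects cohesion, was at 104 ± 4.79 CPM, separase (Espl1) at 149.6 ± 16.5 CPM, its inhibitor securin (Pttg1) at 68.7 ± 7.15 CPM and the deacetylase Hdac8 at 4.18 ± 0.835 CPM.

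The STAG subunits ranked Stag1, Stag2, Stag3 in every library on the length-scaled scale. Stag1 was at 64.6, 64.4 and 43.2 TPM, Stag2 at 29.3, 30.4 and 24.7 TPM and Stag3 at 13.3, 12.5 and 15.1 TPM. The ranges of the 3 genes did not overlap. Stag1 made up 57.5% ± 4.67 of the summed TPM of the family, Stag2 28.5% ± 1.22 and Stag3 14.1% ± 3.59. The log2 ratio was 1.01 ± 0.18 for Stag1 over Stag2 and 1.05 ± 0.30 for Stag2 over Stag3. In counts, Stag1 was at 160.02, 166 and 112 CPM and Stag2 at 72.3, 78.5 and 64.1 CPM, both lowest in the Set 3 library, where Stag3 was highest, and the Stag3 share of the summed TPM was 12.4% and 11.6% in Set 1 and 18.2% in Set 3. Transcripts of Stag1, Stag2 and Stag3 share 0%, 0.456% and 1.21% of their 31-base sequences with other genes. The Stag3 span overlaps those of Gpc2 and Gal3st4 in RefSeq, and whether the counting used strand is not given in the sources used here, so reads of overlapping parts cannot be assigned with certainty.

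Meiotic counterparts of the ring were present at a lower level. Smc1b was at 14.6, 16.4 and 6.31 CPM, lowest in the Set 3 library, and Rec8 at 17.8, 17 and 24.7 CPM, highest there. Per length, Smc1a exceeded Smc1b with a log2 ratio of 3.84 ± 0.77 and Rad21 exceeded Rec8 with 3.17 ± 0.40, ranges apart in both. With median transcript lengths these ratios were 5.88 and 2.42. Smc1b made up 7.0% ± 3.0 and Rec8 10.2% ± 2.64 of their families, so the meiotic forms were the minor members of each family.

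**Figure D4:**
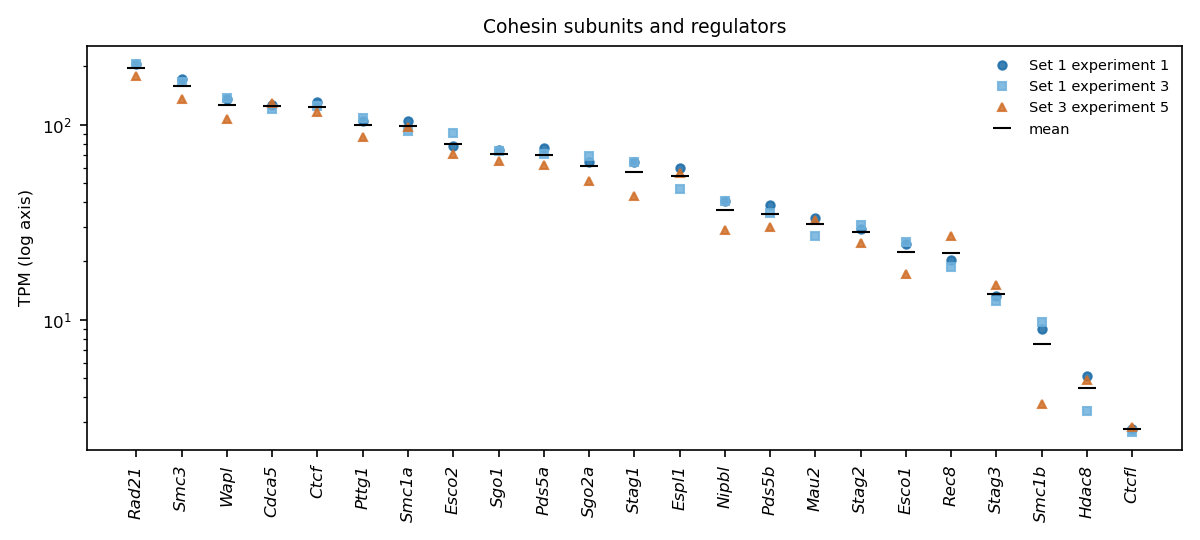
Length-scaled level (TPM, log axis) of cohesin genes and regulators in each of the 3 untreated libraries, 1 point per library. Mitotic ring genes lie between 98.5 TPM (Smc1a) and 195 TPM (Rad21), the STAG genes descend from Stag1 (57.4 TPM) to Stag3 (13.6 TPM), and Smc1b, Hdac8 and Ctcfl lie lowest.

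Several regulators have paralogs too. Pds5a exceeded Pds5b with a log2 ratio of 1.01 ± 0.05 on the TPM scale, and the acetyltransferase Esco2, active in S phase, exceeded Esco1 with 1.85 ± 0.18. Ctcf, the loop boundary factor, exceeded its germline paralog Ctcfl with 5.50 ± 0.11. The shugoshins Sgo1 and Sgo2a, protectors of centromeric cohesion, overlapped at 70.7 ± 5.13 and 61.6 ± 8.98 TPM. Within each library Sgo1 was the higher of the pair on this scale, and Sgo2a was the higher without length scaling. With median transcript lengths the log2 ratio of Sgo1 over Sgo2a was 2.77. Of the 31-base sequences of Sgo2a, 49.8% also occur in other genes, so its count is uncertain.

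Across 25 families with 64 measured genes, neighbours in the order of TPM were compared in 39 pairs. The ranges of the 3 libraries did not overlap in 32 pairs and overlapped in 7. With 3 libraries no exact paired test can go below p = 0.25, so only ranges are given. The ratios depend on the transcript length taken for each gene, and median transcript lengths or coding lengths each moved 24 of 39 by more than 1.5 times. The order turned under at least 1 other length setting in 10 pairs, each named with its genes below or, for the shugoshins, above.

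In several families 1 paralog held nearly the whole sum. Sox2 was at 363 ± 26.4 TPM against 1.21 ± 0.16 for Sox3 and 0.475 ± 0.208 for Sox1, a share of 99.5% ± 0.115. Sox3 exceeded Sox1 with a log2 ratio of 1.43 ± 0.46, an order that was lost when coding sequences set the length. Esrrb exceeded Esrra with a log2 TPM ratio of 4.61 ± 0.16, and Lin28a exceeded Lin28b with 6.55 ± 0.79. Among the KLF factors, Klf2 was at 296 ± 28.2 TPM, above Klf4 at 156 ± 7.96 TPM with a log2 ratio of 0.92 ± 0.12, but median transcript lengths turned this order. Klf4 and Klf5 (156 ± 3.82 TPM) overlapped, with Klf5 higher by coding lengths and without length scaling. Overlap was also found for Dppa2 (63.7 ± 12.6 TPM) and Dppa4 (55.5 ± 1.09 TPM). Of their 31-base sequences, 33.8% and 44.3% also occur in other genes, so both counts are uncertain.

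Among MYC genes, Mycn was the main form on the TPM scale, at 78.9% ± 1.06 of the family. Mycl followed at 15.5% ± 0.403 and Myc at 5.61% ± 0.656. The log2 ratio of Mycn over Mycl was 2.35 on this scale but 0.16 with median transcript lengths. It was 1.63 with coding lengths and 1.96 without length scaling. Chromatin enzymes were similarly uneven. Dnmt3b held 81.6% ± 0.824 of the DNMT3 sum, while Dnmt3l, the catalytically inactive cofactor, and Dnmt3a overlapped at 10.3 ± 0.654 and 9.79 ± 1.42 TPM. That pair depended on the length: Dnmt3a was higher under each other setting. The log2 ratio of Dnmt3l to Dnmt3a was -3.06 for median transcript lengths, -1.22 for coding lengths and -2.33 without length scaling. With median transcript lengths Dnmt3b exceeded Dnmt3l with 2.77, so Dnmt3a and not Dnmt3b was the highest of the family. The dioxygenase Tet1 exceeded Tet2 with a log2 TPM ratio of 1.73 ± 0.04, and Tet2 exceeded Tet3 with 5.76 ± 0.45. Ezh2, the main PRC2 methyltransferase of dividing cells, exceeded Ezh1 with 2.99 ± 0.27, and Hdac1 exceeded Hdac2 with 1.26 ± 0.08, where 62.7% of the 31-base sequences of Hdac1 also occur in other genes.

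The kinases that the inhibitors of the medium act on were all expressed. Gsk3a and Gsk3b, inhibited by CHIR99021, were at 104 ± 11.5 and 28.8 ± 2.42 TPM, a log2 ratio of 1.85 ± 0.24 that turned under each of the 3 other length settings, including none. The kinases Map2k1 and Map2k2, inhibited by PD0325901, were at 103 ± 3.98 and 82.1 ± 11.3 TPM, with Map2k1 higher in every library. Among TCF factors, Tcf7 (86.1 ± 6.88 TPM) exceeded Tcf7l1, the repressor of naive genes (70.2 ± 6.24 TPM), with 0.30 ± 0.01 on the log2 scale, an order that turned with median transcript lengths and without length scaling. Lef1 (9.49 ± 0.20 TPM) and Tcf7l2 (9.2 ± 0.323 TPM) overlapped and were lower, in an order that turned with median transcript lengths.

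Other families had 1 or more weak members. Ago2, the slicing Argonaute, exceeded Ago1 with a log2 TPM ratio of 0.58 ± 0.35, narrowest in the Set 3 library, and Ago3 and Ago4 were at 4.67 ± 1.01 and 0.389 ± 0.0263 TPM. In the TEAD family Tead2 (60.1 ± 5.49 TPM) and Tead1 (54.3 ± 7.89 TPM) overlapped, above Tead4 (27.9 ± 2.56 TPM) and Tead3 (2.69 ± 0.656 TPM). Within each library Tead2 was the higher on this scale, by log2 ratios of 0.0789, 0.00618 and 0.372. Tead1 was higher than Tead2 under each other length setting, with a log2 ratio of Tead2 to Tead1 of -0.28 for median transcript lengths, -1.43 for coding lengths and -1.40 without length scaling. The BMP target Id3 was at 48.2, 45.2 and 24.6 TPM, lowest in the Set 3 library, and exceeded Id4 with a log2 ratio of 1.70 ± 0.70. Id1 (5.62 ± 0.817 TPM) exceeded Id2 (4.25 ± 0.284 TPM) with 0.39 ± 0.16, an order that turned under each other length setting. Lefty2 (84.6 ± 22.7 TPM) and Lefty1 (69 ± 23.4 TPM) overlapped in range, while within each library Lefty2 was the higher.

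**Figure D5:**
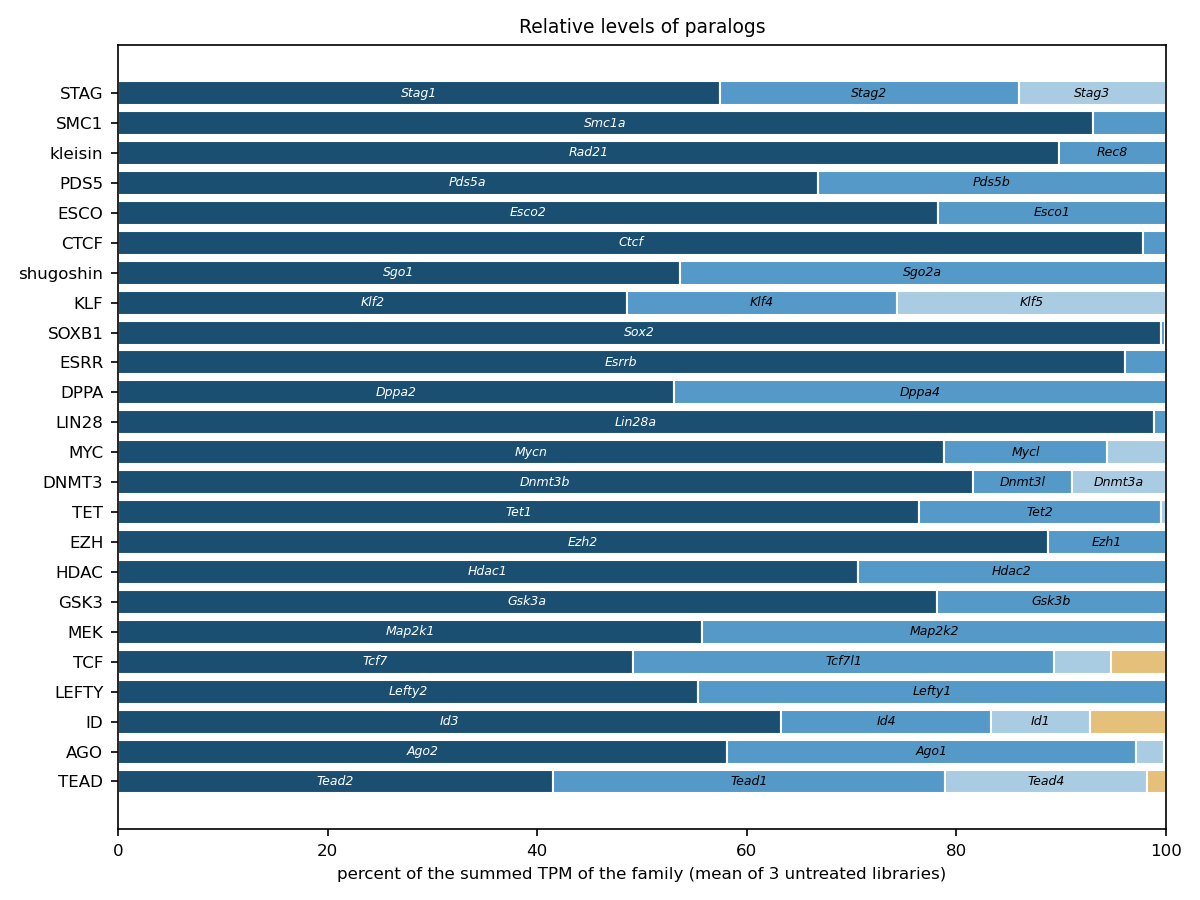
Share of each member in the summed TPM of its paralog family, in percent, as the mean over the 3 untreated libraries, with 1 family not drawn. Sox2, Lin28a, Ctcf, Esrrb and Smc1a hold nearly all of their families, while Stag1, Klf2, Map2k1, Sgo1 and the TEAD genes share theirs, and the order within Klf2 and Klf4, Sox3 and Sox1, Gsk3a and Gsk3b, Tcf7 and Tcf7l1, Id1 and Id2, Dnmt3l and Dnmt3a, Tead2 and Tead1, Lef1 and Tcf7l2, Klf4 and Klf5, and Sgo1 and Sgo2a turns with the length used.

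Markers of other cells that a culture could hold were low. Of 10 fibroblast genes measured, 1 was expressed (71.5% of all genes were), Fbn1 at 1.8 ± 0.326 CPM, and their summed level was 3.86 to 5.69 CPM. Thy1 (1.04 ± 0.176 CPM) and Col1a1 (0.646 ± 0.383 CPM) were low, and Lum, Twist1, Col6a1, Loxl1, Col1a2, Postn and Col3a1 were near-silent, the last 2 with at most 3 counts in each library. Of 7 blood and endothelial genes 3 were expressed, beside 71.5% of all genes. Their sum of 90.2 to 111 CPM was mostly Pecam1 (101, 93.2 and 83.4 CPM), an adhesion protein that naive stem cells also carry. The others were Cd34 (3.84 ± 1.35), Kdr (1.99 ± 0.161), Spi1 (1.16 ± 0.349) and Gata1 (0.615 ± 0.129) CPM, the last pair low, with Tal1 and Ptprc near-silent at 0.189 ± 0.0418 and 0.0766 ± 0.043 CPM. The 4 Y-linked genes measured, Eif2s3y, Ddx3y, Uty and Kdm5d, were all expressed, beside 71.5% of all genes. In that order they were at 55 ± 6.73, 48 ± 12.3, 19.4 ± 4.91 and 16.3 ± 1.37 CPM. E14 is known as a male line.

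The spread among the libraries was small for most genes but exceeded counting error. The median coefficient of variation of the 8706 genes with a mean of at least 10 CPM was 8.76%, against 2.34% from counting alone, and 6981 genes (80.2%) varied more than 2 times as much as counting gives. The median absolute log2 difference was 0.11 between the Set 1 libraries, and 0.15 and 0.19 between each of them and the Set 3 library. The 5 genes of lowest coefficient of variation were the chromatin protein gene Hp1bp3 (70.5, 70.6 and 70.6 CPM), the clamp loader subunit gene Rfc5 (199.8, 200.2 and 199 CPM), Zfp454 (13.4, 13.4 and 13.3 CPM), the splicing factor gene Slu7 (53.9, 53.8 and 54 CPM) and the cell cycle kinase gene Cdk1 (205, 206 and 206 CPM). It was 0.115% for Hp1bp3 and 0.218% for Cdk1, under the 1.95% and 1.14% from counting alone. Such closeness in 3 libraries, picked from 8706 genes, is no measure of steady expression.

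The 5 most variable genes each had 1 library at least 3 times above or below both others. Olfr620 was at 4.05, 75.2 and 7.21 CPM, Rorb, an orphan nuclear receptor, at 4.54, 47 and 5.93 CPM and Ebf1, a B-cell factor, at 39.1, 189 and 44.3 CPM, all high in Set 1 experiment 3 alone. Derpc (0.578, 9.98 and 27.1 CPM) and Gm14288 (21.3, 0 and 12.4 CPM) share 99.0% and 100% of their 31-base sequences with other genes. Rorb and Ebf1 share under 1%.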

How the data were processed

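The authors deposited raw counts per gene for 9 libraries, as whole numbers in 1 table, and all 16636 rows name a gene. The submitters' processing notes list FastQC, Salmon, DESeq2 and the build GRCm39, without versions or roles, so the counts may be rounded Salmon estimates. The annotation and strand setting are not given in the sources used here. Column names gave each library's group, a set and an experiment number, but no replicate number.

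Only the 3 untreated libraries were analysed, in Python 3.11.15 with pandas 2.3.3 and numpy 2.4.6. CPM used the total count of each library. TPM used the longest transcript of GENCODE M21 (GRCm38), which gave a length for 16604 genes. TMM factors for an alternative scaling came from edgeR 4.0.16 in R 4.3.3. Paralogs were called apart where the ranges of the 3 libraries did not overlap. Spread above counting means a coefficient of variation over 2 times that from counting alone, a rule tested on simulated data. Promoter windows and overlapping genes came from RefSeq (GRCm38.p6), and files of that build and of GRCm39 were joined by gene name or ID only.

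Of 308 genes on the lists and in the families, 273 were measured. These members and lists were chosen with earlier results of these data known. Named were the 4 marker genes, the family members, the 10 nuclear and 5 mitochondrial genes of highest CPM, the 10 nuclear genes of highest TPM, the 5 most and 5 least variable genes, and list members: all of them in lists of up to 15 measured genes, otherwise the 4 highest, the 4 lowest and those of a class unlike that of their list. Further list members are named as context. A few members count in the totals and are not reported here by name. The alternatives tried were other thresholds, lengths and scalings, and leaving out each library in turn. Protein identity between paralogs was planned and was not analysed here.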

Additional observations from a re-analysis of the deposited data

How the results depend on the processing

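No list changed its count of expressed genes by more than 1 when a library was left out. Leaving out each library gave 11963 to 12066 expressed and 3124 to 3171 near-silent genes, and 34 to 35 pairs of paralogs apart in place of 32. Both classes and the call of apart must hold over all libraries kept. Leaving 1 out can therefore keep or raise these counts and cannot lower them, so their direction was fixed in advance. Genes varying more than counting gives numbered 4681 to 6524 in place of 6981, with 4681 without the Set 3 library. A near-silent threshold of 0.2 CPM gave 1531 genes in place of 3004. Without mitochondrially encoded genes the 20 highest genes held 7.82% of the counts in place of 9.94%. Transcript length mattered most for paralogs. With median transcript lengths the log2 ratio turned to -0.90 for Klf2 over Klf4, -0.39 for Gsk3a over Gsk3b, -1.57 for Tcf7 over Tcf7l1 and -0.091 for Id1 over Id2. With coding lengths it was -0.00022 for Sox3 over Sox1, -0.21 for Gsk3a over Gsk3b and -0.49 for Id1 over Id2. Without length scaling it was -0.032 for Gsk3a over Gsk3b, -0.0048 for Tcf7 over Tcf7l1 and -0.37 for Id1 over Id2. Which isoforms these cells use was not tested. No paired analysis was possible because 1 group was described and no groups were compared. Genes near the floor of 3 counts are measured too imprecisely to rank.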

Other observations

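A count chosen after the spread was seen asked how many genes with a mean of at least 10 CPM had 1 library at least 3 times above or below both others. There were 8. Rorb, Olfr620 and Ebf1 were higher and Gm14288 lower in Set 1 experiment 3, Derpc was lower in Set 1 experiment 1, and Fos, Egr1 and Olfr1459 were lower in the Set 3 library. Olfr1459, an olfactory receptor gene, was at 163, 174 and 51.8 CPM.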
